A study of Mus musculus with 32 samples.

Results

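The transcripts described here are 10 genes of choroid plexus epithelium, namely Ttr, Kl, Prlr, Mfrp, Tmem72, Car12, Atp2b3, Folr1, Kcne2 and Otx2, as measured in glial cells sorted from mouse brain and spinal cord. They were chosen by their measured levels in these same libraries, several of them having differed between ages in sorted astrocytes, and they were read by name in every count table that lists them. All 10 were found among 55291 genes in the tables of sorted astrocytes and oligodendrocytes, all 10 among 53700 in the microglia table, and 5 (Ttr, Mfrp, Car12, Folr1 and Otx2) among 17572 in the table of cultured astrocytes. The other 5 were not analysed in culture. The question was whether the other 9 genes follow Ttr from library to library.

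The series concerns MYC-driven gliosis in amyotrophic lateral sclerosis, and every library, vehicle-treated controls included, has the genotype TDP-43_Q331K, which encodes a disease-linked variant of the RNA-binding protein TDP-43. The antibody ACSA2 selected astrocytes of mice aged 3, 6 or 10 months (4, 5 and 2 libraries) and the antibody O4 selected oligodendrocyte lineage cells of mice aged 3 or 6 months (4 libraries each), both out of cortex and spinal cord. Cells selected with Cd11b, a microglial surface protein, came from cortices only, at 3 and 10 months (3 and 4 libraries). Primary astrocytes, grown for 14 days, received vehicle or 40 µM Omomyc, a miniprotein that inhibits MYC, for 48 hours (3 libraries each), and the age of the donor animals is not given. Ventricles are not named among the tissues, and nothing in the labels says whether choroid plexus was removed. The labels do not say which libraries share animals, so p-values measure the spread between these libraries only.

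The choroid plexus is a sheet of secretory epithelium in the brain ventricles that makes cerebrospinal fluid and separates it from blood. Its cells secrete transthyretin, encoded by Ttr, which carries thyroid hormone, and Ttr is among the most abundant mRNAs of this epithelium. Klotho, ion pumps, carbonic anhydrases and the folate receptor serve the same barrier, and the homeodomain factor OTX2 maintains its identity.

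Libraries held 6151583 to 20763190 counts in the ACSA2 sorts, 9752907 to 18598533 in the O4 sorts, 4145129 to 5612071 in microglia and 30117025 to 37470972 in culture. The labels were checked against 10 markers each: myelinating oligodendrocyte markers summed to 81755 to 169286 CPM (counts scaled to library size) in O4 sorts against 510 to 763 CPM for astrocyte markers. ACSA2 sorts held 23894 to 36430 CPM of astrocyte markers beside 16361 to 37518 CPM of myelin markers, so the sort is not free of oligodendrocyte RNA. Microglial markers summed to 24919 to 43993 CPM in the Cd11b sorts. Replicate 2 of the 10 month ACSA2 sorts stands apart with 1 count of Ttr, and results of fits and rankings that use the 10 month libraries are given with and without them.

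Promoter sequences of 2 of the genes are shown because the levels of most of the 10 went up and down together across libraries, and because 1 of them, Otx2, encodes a homeodomain protein that binds DNA at the letters TAATCC. RefSeq promoter windows on GRCm38.p6, each 300 bases with 250 before a transcription start, matched 7 of the 10 genes with 13 windows, some of which overlap (Ttr, Atp2b3 and Folr1 had none in the table used). TAATCC, on either strand (GGATTA on the other), was present in 2 of 13 windows, the window of Mfrp and 1 of 4 of Otx2, and in 7.06% of all 32851 windows. The Kl sequence is the 250 bases that end just before the annotated start of the gene (chr5:150952357-150952606, plus strand) and holds no match. The Mfrp sequence (chr9:44101520-44101728, plus strand, 209 bases) ends just before the annotated start and holds 1 match, in capitals, whose first base lies 93 bases upstream of that start. A match is a string of letters and not a measured binding site.
Kl: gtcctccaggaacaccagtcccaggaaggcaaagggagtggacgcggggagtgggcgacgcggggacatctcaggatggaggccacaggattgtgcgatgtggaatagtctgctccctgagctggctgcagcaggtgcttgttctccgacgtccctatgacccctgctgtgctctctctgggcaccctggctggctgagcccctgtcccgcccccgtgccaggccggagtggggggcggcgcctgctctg
Mfrp: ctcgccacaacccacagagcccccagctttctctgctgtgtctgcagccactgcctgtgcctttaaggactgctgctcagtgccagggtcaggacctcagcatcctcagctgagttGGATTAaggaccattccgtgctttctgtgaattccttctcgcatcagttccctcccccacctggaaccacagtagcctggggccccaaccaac

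Ttr varied widely inside each group. In the ACSA2 sorts its level was 198, 860, 1392 and 491 CPM in replicates 1 to 4 at 3 months, 121, 200, 107, 255 and 123 CPM in replicates 1 to 5 at 6 months, and 29.1 and 0.093 CPM (272 and 1 counts) in the 2 replicates at 10 months. Only replicate 1 of the 3 month libraries lay within the 6 month range, and both 10 month libraries lay below every younger one. In the O4 sorts Ttr was at 705, 863, 123 and 33.6 CPM at 3 months and at 1660, 3630, 3634 and 274 CPM at 6 months, so that libraries of 1 age differed by up to 25.7 times and the ages overlapped. In such bulk sorts, fewer cells of a type and less RNA per cell cannot be told apart.

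Kl, which encodes klotho, a transmembrane protein that acts as a co-receptor for FGF23 and is also shed, was high and low in much the same libraries. It was at 9.28, 21.2, 46.7 and 17.9 CPM in ACSA2 sorts of 3 months and at 3.60, 6.89, 2.42, 7.41 and 3.04 CPM in those of 6 months, and it had 2 and 1 counts in those of 10 months. In O4 sorts it was at 12.4, 17.7, 2.81 and 0.62 CPM at 3 months and at 48.6, 86.5, 109 and 8.08 CPM at 6 months. The libraries with the lowest Ttr of their age in O4 sorts, replicate 4 at both ages, were also lowest in Kl, and the 3 month ACSA2 libraries were high or low in the order that Ttr gave. At 6 months in ACSA2 sorts the order of Kl and Ttr differed only for replicates 1 and 5, which were nearly equal in Ttr.

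Atp2b3, a plasma membrane calcium pump (chromosome X), was at 3.45, 12.5, 25.9 and 10.0 CPM in 3 month ACSA2 sorts and at 6.74, 12.2, 2.71 and 0.46 CPM in 3 month O4 sorts. Car12, a membrane-bound carbonic anhydrase (chromosome 9), was at 2.59, 8.28, 14.3 and 5.45 CPM and at 3.40, 7.59, 0.97 and 0.23 CPM in the same libraries. Both were highest and lowest in the libraries in which Ttr was. At 6 months Atp2b3 ranged from 1.65 to 3.51 CPM in ACSA2 sorts and from 6.88 to 55.5 CPM in O4 sorts, and Car12 from 1.43 to 2.86 CPM and from 3.82 to 35.0 CPM. Kcne2, an accessory subunit of potassium channels (chromosome 16), Tmem72, a transmembrane protein (chromosome 6), and Mfrp, a membrane protein with a frizzled-related domain (chromosome 9), reached 23.6, 32.0 and 35.4 CPM at most, in O4 sorts of 6 months. Exons of Mfrp overlap C1qtnf5 on the same strand and Rnf26 on the other, and C1qtnf5 had 0 counts in all ACSA2 and O4 libraries, so reads of Mfrp cannot be told from those of C1qtnf5.

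Prlr, the prolactin receptor (chromosome 15), was at 5.18, 16.2, 26.5 and 10.2 CPM in 3 month ACSA2 sorts and at 3.00, 2.24, 1.80, 3.32 and 2.45 CPM in 6 month ones. At 10 months it was at 0.21 CPM in the replicate with 29.1 CPM of Ttr and at 0.74 CPM in the one with 0.093 CPM, the opposite order (2 and 8 counts). In O4 sorts it was at 7.09, 10.0, 1.33 and 1.78 CPM at 3 months and at 40.9, 48.7, 56.4 and 4.15 CPM at 6 months.

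Folr1 and Otx2 differed from the others in ACSA2 sorts in that their median level was not lower at 6 months than at 3 months. Folr1, the folate receptor alpha that moves folate into cerebrospinal fluid (chromosome 7), was at 8.41, 11.7, 18.5 and 11.9 CPM at 3 months, at 12.9, 13.1, 13.3, 15.9 and 19.2 CPM at 6 months and at 18.5 and 12.7 CPM at 10 months. The ages overlapped, and the library with 1 count of Ttr had 137 counts of Folr1. Otx2 (chromosome 14) was at 2.05, 5.70, 6.93 and 4.26 CPM at 3 months, at 3.90, 7.53, 5.39, 8.26 and 11.5 CPM at 6 months and at 7.07 and 0.28 CPM (66 and 3 counts) at 10 months. Inside the 3 month group Otx2 had the order of Ttr, and at 6 months its highest library, replicate 5, was not the highest in Ttr. In O4 sorts both were low where Ttr was low: Folr1 was at 2.99, 3.85, 0.92 and 0.31 CPM at 3 months and at 7.69, 13.2, 15.6 and 2.40 CPM at 6 months. Otx2 was at 1.46, 1.80, 0.56 and 0 CPM at 3 months (0 counts in replicate 4 allow up to 0.23 CPM) and at 3.80, 12.3, 14.7 and 2.29 CPM at 6 months.

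**Figure D1:**
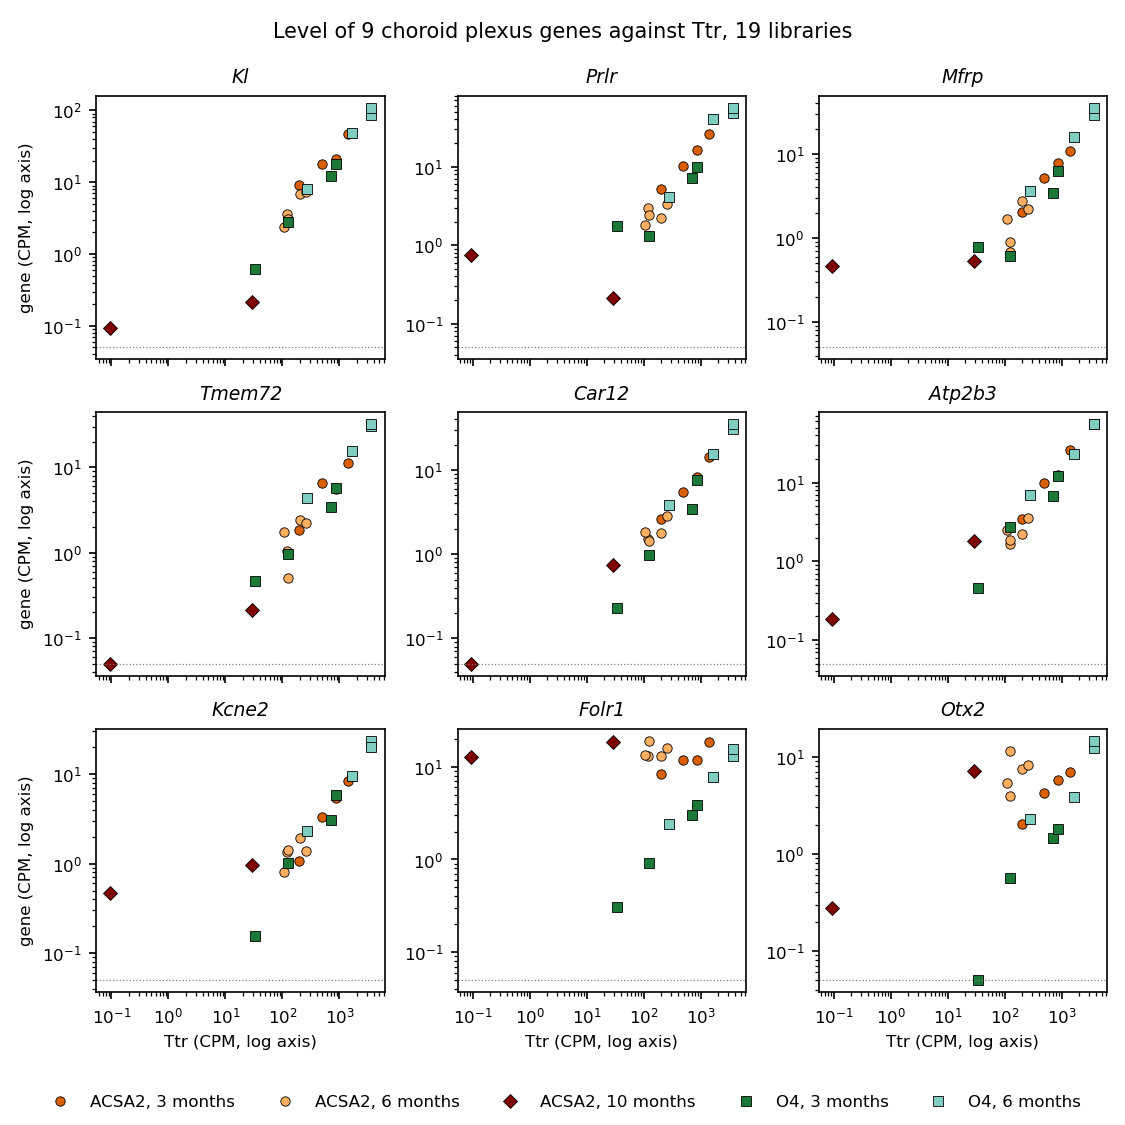
Level of each of the 9 other genes (CPM, log axis) against Ttr (CPM, log axis) in 19 libraries, 1 panel per gene, with each point 1 library of the ACSA2 or O4 sorts. Genes at 0 counts are drawn on the dotted line. Folr1 of ACSA2 sorts lies above the O4 libraries with a like level of Ttr, while the points of Kl, Car12 and Atp2b3 from both sorts mix at 3 and 6 months.

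Scaled for transcript length, in the authors' TPM (transcripts scaled to length and library), Ttr was the highest of the 10 at 3 months in both sorts, with medians of 1923 TPM in ACSA2 and 1349 TPM in O4 sorts. In 3 month ACSA2 sorts the next were Folr1 (17.3 TPM), Kcne2 (8.36 TPM), Atp2b3 (7.87 TPM) and Kl (7.05 TPM), whose ranges over libraries overlap. Tmem72 had the lowest median, 1.18 TPM. In 3 month O4 sorts the order below Ttr was Kcne2 (4.47 TPM), Atp2b3 (3.80 TPM), Folr1 (3.29 TPM) and Kl (3.15 TPM), and these ranges overlap too.

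The ratio to Ttr also sets Folr1 and Otx2 apart, without a model. Over the 3 and 6 month libraries, Kl had a median of 29.7 counts per 1000 counts of Ttr in ACSA2 sorts (22.6 to 46.8) and 23.4 in O4 sorts (17.5 to 30.02). For Kl, Prlr, Mfrp, Tmem72, Car12, Atp2b3 and Kcne2 the medians of the sorts differed by 1.01 to 1.33 times and the ranges overlapped. By age, 2 of these 7 genes did not overlap at 3 months: Kl had a median of 35.0 against 19.5, and Car12 of 10.7 against 7.40. Folr1 had a median of 62.3 per 1000 Ttr in ACSA2 sorts (13.3 to 156) and 4.54 in O4 sorts (3.64 to 9.20), a 13.7-fold gap with no overlap between the sorts. Otx2 had a median of 32.1 (4.98 to 93.6) against 2.84 (0 to 8.37), an 11.3-fold gap with overlapping ranges. Inside an age neither gene overlapped between the sorts. How many of all genes fail to overlap in their ratio to Ttr was not counted. In level, 38.7% of all genes were called higher and 35.9% lower in ACSA2 than in O4 sorts over both ages. For Folr1 the medians were 18.9 against 5.97 at 3 months, a 3.16-fold gap, and 106 against 4.46 at 6 months, a 23.8-fold gap. For Otx2 they were 7.65 against 2.07 at 3 months, a 3.69-fold gap, and 37.7 against 3.71 at 6 months, a 10.2-fold gap. The ratio of Kl in ACSA2 sorts was 35.0 at 3 months and 29.1 at 6 months. Markers of ependymal cells, which line the ventricles, also differed between the sorts: 12 of them summed to 539 to 744 CPM at 3 months and 749 to 1087 CPM at 6 months in ACSA2 sorts, against 38.3 to 62.8 CPM in O4 sorts of both ages. In the 10 month ACSA2 libraries they summed to 1268 and 951 CPM, where Folr1 was at 18.5 and 12.7 CPM and Otx2 at 7.07 and 0.28 CPM. Other lists split the sorts as well: 9 of 10 astrocyte and 6 of 8 leptomeningeal markers were called higher in ACSA2 sorts, and all 10 myelin markers lower. The part of these cells in the levels of Folr1 and Otx2 was not tested.

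**Figure D2:**
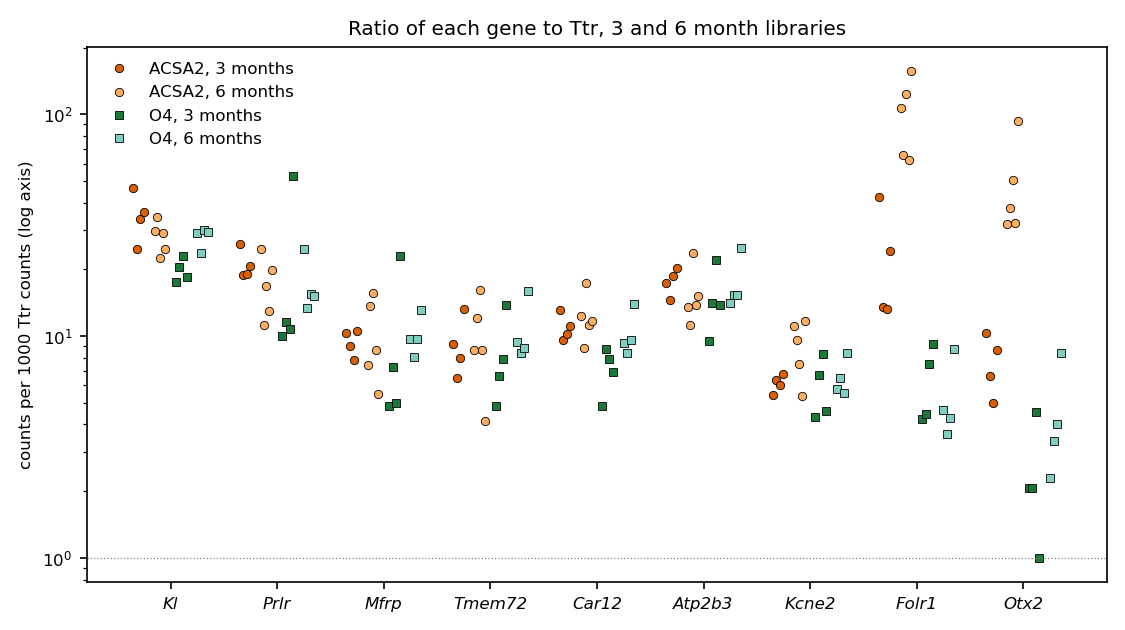
Counts of each gene per 1000 counts of Ttr (log axis) in the 3 and 6 month libraries, each point 1 library. Folr1 of ACSA2 sorts (13.3 to 156) lies above all O4 libraries (3.64 to 9.20). The Otx2 value of 0, in replicate 4 of the 3 month O4 sorts, is drawn on the dotted line.

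Whether the genes follow Ttr inside an age was tested in edgeR with 1 mean per age and a slope on log2 CPM of Ttr, where a slope of 1 is a constant ratio to Ttr and a slope of 0 is no relation. The genes were chosen with results of these libraries known, so no count of them is independent of that choice, although the means take out the age differences. All errors of slopes are SE, and adjusted p is from the quasi-likelihood test over all genes tested. In ACSA2 sorts (11 libraries) 4 of 9 genes rose with Ttr, against 0.0309% of all 16188 genes (5 genes, the fifth being Htr2c). Car12 had a slope of 0.82 ± 0.11, Kl of 0.81 ± 0.11 and Atp2b3 of 0.77 ± 0.11 (each adjusted p = 0.00496), and Otx2 of 0.61 ± 0.10 (adjusted p = 0.0239). The 95% intervals of Kl (0.57 to 1.04) and Car12 (0.58 to 1.06) include 1, and that of Otx2 (0.40 to 0.81) does not.

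The other 5 did not pass: Tmem72 had a slope of 0.78 ± 0.17 (adjusted p = 0.372), Kcne2 of 0.44 ± 0.13, Mfrp of 0.41 ± 0.15, Prlr of 0.33 ± 0.15 and Folr1 of 0.12 ± 0.05. The intervals of all 9 lay above 0, as did those of 2.47% of all genes. That of Folr1 (0.02 to 0.22) had the lowest upper end of the 9, and that of Prlr (0.006 to 0.66) the lowest lower end. The 2 libraries of 10 months weighed on these values. Without them (9 libraries) 4 of 9 genes passed, against 0.0464% of all 15072 genes (7 genes, the other 3 being further genes of choroid plexus), and all 9 intervals again lay above 0, against 0.936% of all genes. The slopes of Prlr (0.77 ± 0.11, adjusted p = 0.0174), Kl (0.86, adjusted p = 0.00817), Atp2b3 (0.89, adjusted p = 0.0174) and Car12 (0.81, adjusted p = 0.0284) passed. Mfrp and Kcne2 then had slopes of 0.84 ± 0.17 (adjusted p = 0.206) and 0.91 ± 0.17 (adjusted p = 0.154), Folr1 of 0.28 ± 0.11, and Otx2 of 0.51 ± 0.18, which no longer passed (adjusted p = 1).

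Single 3 month ACSA2 libraries carried the calls. Without replicate 1, the lowest in Ttr at that age, or without replicate 3, the highest, 0 of 9 genes passed in edgeR, with slopes of Kl of 0.91 (adjusted p = 0.144) and 0.67 (adjusted p = 0.446), while 6 of 9 had an unadjusted p under 0.05 in each case, as 3.35% and 3.09% of all genes had. Otx2 also missed without replicate 2 (adjusted p = 0.0594) or replicate 4 (adjusted p = 0.0665) of 3 months. Without either 10 month library alone, the slopes of Prlr (0.77) and Otx2 (0.51) were those found without both. The library that remains then sets the mean of its age and holds nothing on the slope. These fits therefore repeat the fit without both, and the counts over 11 fits that follow include them. Over the 11 libraries left out in turn, the slope of Kl stayed between 0.67 and 0.91, of Car12 between 0.75 and 0.87 and of Otx2 between 0.51 and 0.66. The slope of Prlr went from 0.10 without replicate 1 of 3 months to 0.77 without a 10 month library, and its interval lay above 0 in 4 of 11 fits. Mfrp (0.22 to 0.84), Kcne2 (0.27 to 0.91) and Folr1 (0.09 to 0.28) were likewise lowest without replicate 1 or 3 of 3 months and highest without a 10 month library. The intervals of Mfrp and Folr1 lay above 0 in 9 of 11 fits, and those of the remaining 6 genes in all 11.

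In O4 sorts (8 libraries) 7 of 9 genes rose with Ttr, against 0.214% of all 14049 genes. Kl tracked it most closely, with a slope of 0.96 ± 0.04 (adjusted p = 6.61e-06, interval 0.87 to 1.05). Kcne2 (0.90 ± 0.07), Car12 (0.89 ± 0.07), Atp2b3 (0.82 ± 0.06) and Folr1 (0.71 ± 0.06) each had an adjusted p of 0.000376. Tmem72 had a slope of 0.77 ± 0.05 (adjusted p = 0.000167) and Mfrp of 0.81 ± 0.08 (adjusted p = 0.00352). Otx2 (0.75 ± 0.12, adjusted p = 0.0550) and Prlr (0.78 ± 0.12, adjusted p = 0.0671) missed the threshold, and all 9 intervals lay above 0, against 2.07% of all genes. Without replicate 4 of 6 months Mfrp missed (0.78, adjusted p = 0.110), without replicate 4 of 3 months Prlr passed (0.97, adjusted p = 0.00410), and without replicate 1 of 6 months both Prlr (0.82, adjusted p = 0.0216) and Otx2 (0.72, adjusted p = 0.00168) passed.

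**Figure D3:**
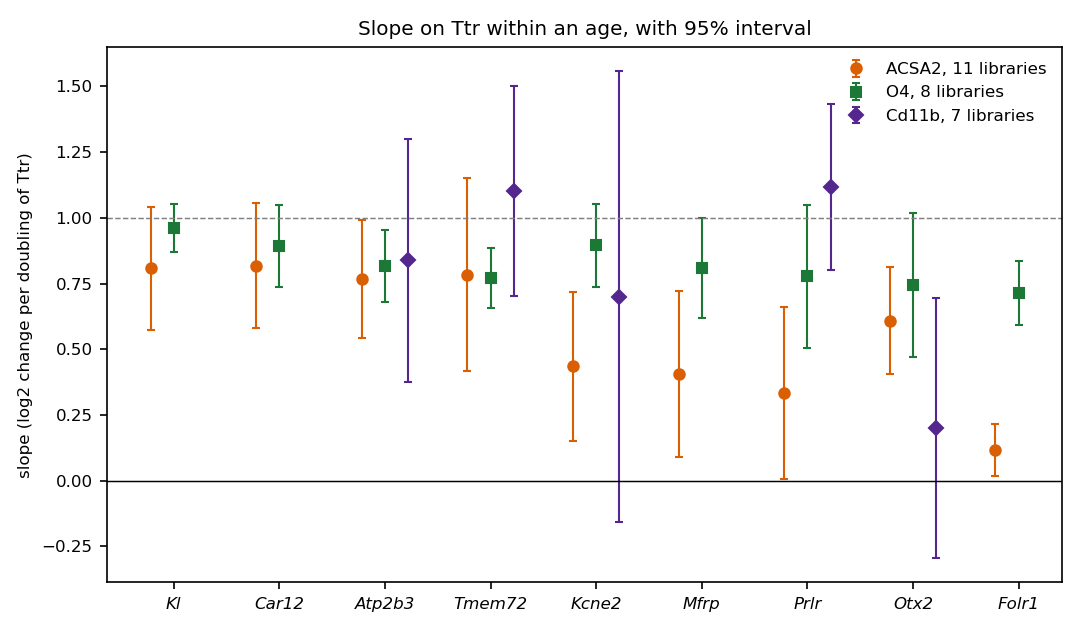
Slope of each gene on Ttr (log2 change per doubling of Ttr) with its 95% interval, in ACSA2 sorts (11 libraries), O4 sorts (8) and Cd11b sorts (7), where 1 (dashed) is a constant ratio to Ttr and 0 (solid) no relation. Folr1 has the lowest slope in ACSA2 sorts (0.12), while in O4 sorts the 9 slopes lie between 0.71 and 0.96.

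The difference of the slopes between sorts was tested over the 17 libraries of 3 and 6 months. In edgeR 0 of 9 passed, against 0.00611% of all 16362 genes (1 gene, Slc7a10, a neutral amino acid transporter of astrocytes), and DESeq2 also called 0. Folr1 was the only one with an unadjusted p under 0.05 (2.24% of all genes had one): its slope was lower in ACSA2 than in O4 sorts, by -0.42 ± 0.12 (interval -0.68 to -0.17, unadjusted p = 0.00228, adjusted p = 1). For Otx2 the difference was -0.22 ± 0.24 (interval -0.73 to 0.28), and for Kl -0.10 ± 0.11 (interval -0.32 to 0.13). The interval of Prlr reached from -0.95 to 0.95 around an estimate of 0.00066. Its SE came from the F statistic, which is imprecise for an estimate so near 0, so nothing is read from that width. With 1 library left out, the estimate ran from -0.19 to 0.18.

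Other genes of choroid plexus epithelium were taken from a list of 40 that excludes the 10. In ACSA2 sorts 36 were tested, 1 passed with a positive slope and 0 with a negative one, 19 had an interval above 0, and their median slope was 0.18 (0.00 over all genes). That 1 gene was Htr2c, a serotonin receptor abundant in this epithelium (0.91 ± 0.11, adjusted p = 0.00441). Without the 10 month libraries 34 were tested, 3 passed with a positive slope and 0 with a negative one, 20 had an interval above 0, and the median was 0.46 (0.00 over all genes). In O4 sorts 35 were tested, 14 passed with a positive slope, 0 with a negative one, 30 had an interval above 0 and the median was 0.58 (0.00 over all genes). The list also holds genes that glia make, such as Enpp2 of oligodendrocytes, so its members are not all specific to the tissue. The 30 genes called in O4 sorts, all with a positive slope, were 7 of the 10, these 14 and 9 on neither list: 2900040C04Rik, Slc7a10, Strip2, Cfap65, Slc2a12, Frem1, Myo5b, Cd74, the invariant chain of antigen presentation, and Clu, the secreted chaperone clusterin. Their slopes ran from 0.28 ± 0.04 (Clu, adjusted p = 0.0388) to 1.04 ± 0.09 (2900040C04Rik, adjusted p = 0.000986). The 11 lists of other cell types include ependymal cells, endothelium, meningeal fibroblasts, astrocytes, microglia, neurons and erythrocytes. Of their genes, 0 of 87 tested passed in ACSA2 sorts and 0 of 75 in O4 sorts by edgeR, and DESeq2 called 0 in both. An unadjusted p under 0.05 in edgeR was found for 12 of the 87 and 8 of the 75. Over all genes, 400 intervals lay above 0 and 201 below of 16188 in ACSA2 sorts, and 291 and 224 of 14049 in O4 sorts. Without the 10 month libraries 0 of 83 passed in ACSA2 sorts by edgeR, 3 with an unadjusted p under 0.05, as 200 of all 15072 genes had. Ependymal markers had a median slope of 0.07 in ACSA2 sorts, where 2 of 12 intervals lay above 0, and endothelial ones of 0.12, where 3 of 10 did, against 2.47% of all genes. Erythrocyte markers had a median slope of -0.17 there, with 4 of 5 intervals below 0. Without the 10 month libraries the ependymal and endothelial medians were 0.10 and 0.16, with 1 of 12 and 1 of 10 intervals above 0, against 0.936% of all genes. The erythrocyte median was then -0.08, with 0 of 5 intervals below 0.

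The genes most like Ttr were ranked over the 19 ACSA2 and O4 libraries by Pearson's r of log2 CPM, as deviations from the mean of sort and age, among 14650 genes with a mean of at least 1 CPM. These points share libraries and depth with Ttr, and r is given as a description. Outside the 10, the highest were Htr2c (r = 0.93), Slc2a9 (0.90), Kcnh1 (0.86), Krt18 (0.85), Clic6 (0.84), Ace (0.84), F5 (0.82), Gm44250 (0.82), Abca4 (0.81) and Fgf18 (0.81). Of these, 6 were on the list of 40 and 4 were not. Among the 10, Otx2 ranked 1 (r = 0.94), Car12 3, Atp2b3 4, Tmem72 14, Kcne2 15, Kl 22, Folr1 25, Mfrp 52 and Prlr 355 (r = 0.54). On this scale the 2 libraries of 10 months, 1 of them with 1 count of Ttr, are both distant points. They lie equally far from their shared mean, on opposite sides. Over the 17 libraries of 3 and 6 months Kl ranked 1 (r = 0.99), Car12 2, Kcne2 3, Atp2b3 4, Folr1 8, Tmem72 10, Mfrp 19, Otx2 20 (r = 0.91) and Prlr 22 (r = 0.91). Htr2c then ranked 9 and Slc2a9 50, so the order of the genes depends on the 2 libraries of 10 months.

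With age, the genes had been chosen with their differences in ACSA2 sorts known, so these values are a description. From 3 to 6 months the log2 fold change was -2.35 ± 0.48 for Kl, -2.47 ± 0.39 for Prlr, -2.37 ± 0.52 for Atp2b3, -2.19 ± 0.77 for Ttr and between -1.96 and -1.74 for Tmem72, Mfrp, Car12 and Kcne2. Folr1 (0.26 ± 0.20) and Otx2 (0.68 ± 0.56) had the opposite sign. Other markers moved beside this difference: the summed level of myelin markers was 23953 to 37518 CPM at 3 months and 16361 to 25076 CPM at 6 months, and that of endothelial markers 202, 353, 375 and 372 CPM at 3 months and 340, 187, 166, 178 and 147 CPM at 6 months. Replicate 1 of 3 months was the lowest of its age in endothelial markers, as in Ttr, and replicate 1 of 6 months was the highest. The part of these cells in the age difference was not tested. With Ttr in the fit, the difference that remained was -0.67 ± 0.30 for Kl, -0.17 ± 0.40 for Car12, -0.33 ± 0.53 for Tmem72, -1.08 ± 0.50 for Mfrp and -1.72 ± 0.49 for Prlr, whose slope in that fit is 0.33. It was 0.50 ± 0.20 for Folr1 and 1.94 ± 0.33 for Otx2. Without the 10 month libraries it was -0.56 ± 0.27 for Kl, -0.18 ± 0.34 for Car12, -0.31 ± 0.50 for Tmem72, 0.85 ± 0.27 for Folr1 and 1.73 ± 0.46 for Otx2. Those of Mfrp (-0.19 ± 0.43) and Prlr (-0.80 ± 0.30) were then closer to 0, and that of Kcne2 changed sign, from -0.77 to 0.24 ± 0.47.

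In O4 sorts, whose results were also known when the genes were chosen, so that the following count is not independent of the choice, Otx2 (3.08 ± 0.82, adjusted p = 0.0286), Tmem72 (2.95 ± 0.80, adjusted p = 0.0346) and Mfrp (2.91 ± 0.86, adjusted p = 0.0466) rose from 3 to 6 months by edgeR. These are 3 of 10 called higher and 0 called lower, against 14.9% of all genes called higher and 9.46% called lower. The remaining 7 had log2 fold changes from 2.26 ± 0.72 (Folr1) to 2.90 ± 0.98 (Kl) with adjusted p from 0.0506 to 0.175, the last being that of Ttr (2.41 ± 1.15). The sign of 8 of them is the reverse of that in ACSA2 sorts, and the difference between the sorts in the effect of age was not tested. The count rests on single libraries: it was 0 without replicate 1 or 3 of 3 months or replicate 2 or 3 of 6 months, 1 without replicate 4 of 3 months or replicate 1 of 6 months, 5 without replicate 2 of 3 months and 9 without replicate 4 of 6 months. It was 8 by DESeq2. The shares of all genes called in these alternative fits are not given. Vessel markers moved in the same direction: all 10 endothelial markers (median 2.77, summed level 70.2 to 89.7 CPM at 3 months and 262 to 729 CPM at 6 months) and all 6 tested of pericytes and smooth muscle (median 2.32, 37.1 to 83.9 CPM and 220 to 444 CPM) were called higher. In the slope fit on Ttr 0 of these 10 and 0 of these 6 passed, with median slopes of 0.01 and -0.12. Their part in the age difference was not tested.

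Between sorts, over 3 and 6 months, 8 of 10 genes were called lower in ACSA2 than in O4 sorts and 1 higher, in a comparison in which 35.9% of all genes were called lower and 38.7% higher. Ttr differed by -1.86 ± 0.64 (adjusted p = 0.0176), Atp2b3 by -1.67 ± 0.55 (adjusted p = 0.0134) and Kl by -1.498 ± 0.59 (adjusted p = 0.0335). Folr1 was higher in ACSA2 sorts by 1.26 ± 0.36 (adjusted p = 0.00460), a call kept with each library left out, and Otx2 had 0.69 ± 0.45 (adjusted p = 0.175). Without replicate 2 of the 3 month O4 sorts only Ttr remained called lower, and Folr1 higher. All 12 ependymal markers (median 5.55), 9 of 10 astrocyte markers (median 6.10) and 6 of 8 leptomeningeal ones (median 1.87) were called higher in ACSA2 sorts. All 10 myelin markers were called lower. The part of these cells in the Folr1 difference was not tested.

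In Cd11b sorts Ttr was at 282, 2461 and 1205 CPM at 3 months and at 1275, 517, 2902 and 74.7 CPM at 10 months, and the ages overlapped. Prlr was at 1.99, 27.6 and 31.4 CPM and at 12.6, 7.13, 33.1 and 0.51 CPM in the same order of libraries, and Tmem72 at 0.54, 14.5 and 4.62 CPM and at 5.97, 3.11, 12.9 and 0.34 CPM. Both were lowest in the libraries in which Ttr was lowest at each age. Of the 10 genes 6 passed the filter on low counts; Kl, Mfrp, Car12 and Folr1 did not, with at most 12, 3, 20 and 23 counts in a library. These libraries were made from 3′ ends, so levels are not compared with those of the other sorts.

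In the slope fit of 7 libraries, 1 of the 5 genes beside Ttr passed, against 0.0162% of all 12319 genes (2 genes, the second being Sostdc1 of the list of 40). Prlr had a slope of 1.12 ± 0.15 (adjusted p = 0.0132, interval 0.80 to 1.43), but missed without replicate 3 (adjusted p = 0.459) or replicate 4 (adjusted p = 0.289) of 10 months. Tmem72 (1.10 ± 0.19, adjusted p = 0.0667) and Atp2b3 (0.84 ± 0.22, adjusted p = 0.611) missed the threshold with intervals above 0, so 3 intervals lay above 0, against 1.91% of all genes. Kcne2 (0.70 ± 0.40) and Otx2 (0.20 ± 0.23, interval -0.29 to 0.70) had intervals that include 0. Otx2 was at 4.17, 1.36 and 6.47 CPM at 3 months and lowest in the library with the most Ttr. At 10 months it was at 1.85, 3.84, 7.24 and 1.71 CPM, highest and lowest in the libraries in which Ttr was. Between 10 and 3 months 0 of 6 genes passed in edgeR, 0 had an unadjusted p under 0.05 (16.9% of all genes did), DESeq2 called 0, and 3.21% of all genes were called in either direction. The interval of Ttr was -3.43 to 3.14, so this comparison does not bound a change.

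**Figure D4:**
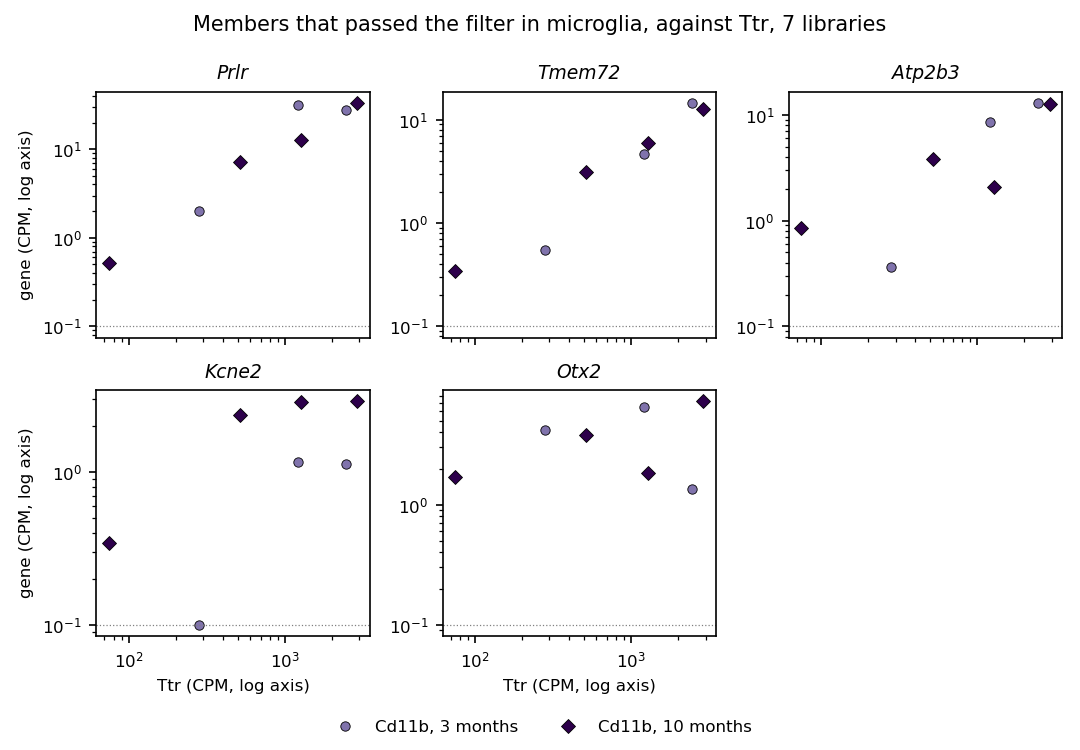
Level (CPM, log axis) of the 5 genes other than Ttr that passed the low-count filter in Cd11b sorts against Ttr (CPM, log axis), each point 1 of 7 libraries. Prlr and Tmem72 are lowest where Ttr is lowest at each age. Otx2 (1.36 to 7.24 CPM) is lowest where Ttr is lowest at 10 months but not at 3 months. The dotted line marks 0 counts.

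In cultured astrocytes Ttr was at 0.46, 0.44 and 4.04 CPM with vehicle (14, 14 and 127 counts) and 0.57, 0.28 and 4.38 CPM with Omomyc (19, 9 and 162 counts). Replicate 3 was the high one in both treatments. It was also the highest of each treatment in markers of leptomeningeal fibroblasts (7 genes, 4027 CPM with vehicle and 3921 CPM with Omomyc, against 1587 to 1815 CPM in the other libraries) and of microglia (10 genes, 2826 and 3638 CPM, against 1573 to 2207 CPM). Their part in the level of Ttr was not tested. Folr1 was at 8.42, 11.01 and 5.60 CPM with vehicle and 9.35, 8.51 and 6.49 CPM with Omomyc, and Otx2 at 6.81, 8.25 and 5.66 CPM and 6.23, 8.45 and 6.35 CPM. Neither was highest in replicate 3, where Ttr was. The 10 ependymal markers in this table summed to 305 to 613 CPM and were lowest in replicate 3 of each treatment, and their part in the levels of Folr1 and Otx2 was not tested.

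With 1 mean per treatment, edgeR called 0 of 5 genes changed by Omomyc, against 0.0186% of all 16119 genes, and DESeq2 also called 0. This fit leaves out that libraries with the same number go together. With a term for that number, 0 were called as well. Estimates, intervals, p-values and shares of all genes here are those of the fit without that term. Car12 was at 1.15, 1.07 and 1.21 CPM with vehicle and 1.82, 1.62 and 1.89 CPM with Omomyc, with no overlap. Its log2 fold change was 0.64 ± 0.18 (unadjusted p = 0.0101, adjusted p = 0.626), and it was the 1 gene of the 5 with an unadjusted p under 0.05, as 6.34% of all genes had. Mfrp had -0.52 ± 0.27, Folr1 -0.04 ± 0.26 and Otx2 0.02 ± 0.19 (adjusted p from 0.802 to 0.993), and the interval of Ttr was -2.73 to 2.93. That interval includes the spread between replicates, with replicate 3 high in both treatments. It does not measure the change between libraries of the same number.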

How the data were processed

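The authors deposited raw counts per gene for every library and TPM for the ACSA2 and O4 sorts, per the file headers. Per the labels' protocols, the ACSA2 and O4 sorts were prepared by a poly(A) method with unique molecular identifiers, the Cd11b sorts by one that reads 3′ ends, and the cultures by a further mRNA method. Per the submitters' processing notes, the tools included STAR 2.7.7a, featureCounts 2.0.1, UMI-tools 1.0.1, DESeq2 and fastp. The notes name builds GRCm39, GRCm38.p6 and mm10, and their assignment to tables, like the use of strand in counting, was not given in the sources used here. Positions and overlaps are from GENCODE vM21 on GRCm38, identifiers were matched to symbols by Ensembl gene ID (52093 of 53700 in microglia, 17559 of 17572 in culture), and counts per library and per gene were otherwise used as deposited. Replicates differed by more than counting noise (chi-square per degree of freedom of at least 5.94), so none was counted as a repeat. Normalized tables of the Cd11b sorts and cultures were not used here.

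Each table was fitted in edgeR 4.0.16 (R 4.3.3) with TMM scaling, filterByExpr (minimum count 10), the robust two-sided quasi-likelihood F test and Benjamini-Hochberg adjustment over all genes tested. A gene was called at an adjusted p under 0.05. The slope fits had 1 mean per age and log2 CPM of Ttr (prior count 2). SE came from the F statistic, and intervals are 95%. Levels are CPM on TMM scaling. The code was tested on simulated data. Ttr itself is the covariate and has no slope. Age differences of the genes in ACSA2 sorts have no p.

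The 10 genes and all lists were chosen with earlier results of these data known. The text names the 10 genes, called genes of the list of 40 (up to 6 in ACSA2 sorts) and the 10 other genes with the highest correlation with Ttr; others named for a call were chosen after their values were seen. In culture, libraries with the same number deviated together (r = 0.63, 0.43 and 0.68 over genes), so the numbers pair them. Between ages of 1 sort they did not, and ACSA2 was not checked against O4. Alternatives were DESeq2 1.42.0, RLE scaling, a 1 CPM filter or none, a term for the replicate number, a prior count of 0.5, no age term, leaving out the 10 month libraries and each library in turn, and, added after seeing the data, Kl in place of Ttr as the covariate and leaving the 10 month libraries out of the correlations and of the age difference with Ttr in the fit.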

Additional observations from a re-analysis of the deposited data

Results flagged for a closer look

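Of 50 groups of 4 or 5 libraries tested for a library far from the others, 1 was flagged, and chance flags about 1 in 20. In 10 month Cd11b sorts, Mfrp was at 0.543 CPM in replicate 3, from 3 counts, and at 0 in the other 3 libraries. That is the limit a count of 0 allows, and replicate 3 also had the highest Ttr (2902 CPM) of that age.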

How the results depend on the processing

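No call among the 10 genes changed direction under the alternatives run, several of which left 0 calls. Shares of all genes called are not given beside the counts below. A rise or fall in them is therefore not read as particular to these genes. Slopes in ACSA2 sorts (4 called): 2 with the replicate block, 7 without age terms, 0 with Kl as covariate (added after seeing the data), and 0 to 4 with 1 library left out. Slopes in O4 sorts (7 called): 0 with the replicate block, and 6 to 9 with 1 library left out. Slopes in Cd11b sorts (1 called): 3 without a filter, 2 by DESeq2, 0 with the replicate block, and 0 to 1 with 1 library left out. O4 sorts by age (3 called): 0 without a filter, 8 by DESeq2, 10 with the replicate block, and 0 to 9 with 1 library left out. ACSA2 over O4 sorts (9 called): 4 with the replicate block (1 higher, 3 lower), and 2 to 9 with 1 library left out. Of the other choroid plexus genes in ACSA2 sorts (1 called): 5 without a filter, 7 without age terms, 3 without the 10 month libraries, 0 with Kl as covariate, and 0 to 3 with 1 library left out. In O4 sorts (14 called): 29 without a filter, 24 by DESeq2, 0 with the replicate block, 23 without age terms, and 4 to 19 with 1 library left out. The difference of slopes, the Cd11b age comparison and Omomyc stayed at 0 calls with each library left out and with the replicate block. In the ACSA2 sorts by age, the median log2 fold change of the 10 genes was -1.96 at 6 over 3 months (-2.24 to -1.57 with 1 library left out) and -4.04 at 10 over 3 months (-5.13 to -3.41). Between ages of 1 sort, libraries with the same replicate number did not deviate together (r from -0.17 to 0.18). Pairing between ACSA2 and O4 libraries of the same age was not checked. In the ACSA2 over O4 comparison the values also moved with the block (Ttr from -1.86 to -1.47, Kl from -1.498 to -1.137). In culture, where the numbers pair the libraries, the block changed no call. The cause of the other changes was not tested. In the 10 month ACSA2 libraries Kl, Prlr, Mfrp, Tmem72, Car12 and Kcne2 had at most 9 counts, although their totals (8775580 and 10250507) lie within the range of the other ACSA2 libraries. Totals were lowest in the Cd11b sorts, which were made from 3′ ends and in which 4 genes did not pass the filter. The part of depth in this was not tested.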
